A study of Mus musculus with 9 samples.

Results

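The 10 genes described here encode 5 Toll-like receptors (Tlr2, Tlr3, Tlr4, Tlr7 and Tlr9), 3 adaptor proteins (Myd88, Ticam1 and Ticam2), the kinase Irak4 and the ubiquitin ligase Traf6. They were taken by gene symbol from the 54532 genes of the deposited table, and all 10 were found. RNA of brain cortex was sequenced from 3 untreated males of each of 3 inbred strains aged 8 to 12 weeks, C57BL6/J (B6), C3H/HeJ (C3H) and WSB/EiJ (WSB), in a study of loci that modulate infarct size in stroke. B6 and C3H are classical laboratory strains, of which B6 supplied the reference genome, whereas WSB descends from recently caught wild mice. All mice were bred locally from Jackson Laboratory stock and carried no transgene. The libraries held 17651630 to 21562429 reads on genes among B6 mice, 19042306 to 19433751 among C3H mice and 16317439 to 17784118 among WSB mice. C3H replicate 2 stood apart: leaving it out raised the genes called over the whole table from 956 to 2301 between C3H and B6 and from 1182 to 2002 between WSB and C3H.

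Toll-like receptors recognise molecules that are typical of microbes or released by damaged cells. Tlr2 and Tlr4 act at the cell surface, on bacterial lipoproteins and on lipopolysaccharide respectively, while Tlr3, Tlr7 and Tlr9 act in endosomes on double-stranded RNA, single-stranded RNA and unmethylated CpG DNA. Myd88 passes the signal of most receptors on through Irak4 and Traf6 to NF-kappaB, whereas Tlr3 signals through Ticam1 (also called TRIF), which also leads to interferon genes. Tlr4 uses both routes, and Ticam2 (TRAM) links it to Ticam1. In brain, microglia are the best known site of these receptors, and Tlr3 is also found in astrocytes and neurons.

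Of the 10 genes, Tlr3 was the only one whose level passed the test between any pair of strains. Its mean in WSB was 28.1% of that in B6 and 34.7% of that in C3H. Tlr7 and Tlr9 had lower means in C3H and WSB than in B6, and Ticam1 had higher means, without passing the test. Tlr4, in which C3H/HeJ is known to carry a loss-of-function allele, had similar RNA means in the 3 strains, with wide intervals.

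Tlr3 (ENSMUSG00000031639) lies on the minus strand of chromosome 8 at chr8:45395665-45411080 (GRCm38), within the interval that the study mapped, and is annotated with 9 transcripts, of which the longest has 7 exons. The bases just upstream of its RefSeq start site are shown because Tlr3 is the member whose level differed. They are the 72 bases at chr8:45410381-45410452 (GRCm38.p6, minus strand) that precede this start and that no annotated exon covers. They lie inside the annotated gene, whose upstream end is at 45411080, and an annotated Tlr3 exon adjoins them upstream. The capitals mark a match to the core recognised by interferon regulatory factors (AANNGAAA, read on either strand), which begins at position -59.
Tlr3: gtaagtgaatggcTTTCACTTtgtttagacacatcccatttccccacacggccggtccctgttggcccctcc
This core was chosen after the Tlr3 sequence had been read, and it occurred in 23.9% of 32851 RefSeq promoters of 250 bases before to 50 bases after a start. Of the 7 members with a promoter entry, Tlr2, Tlr3 and Myd88 held it. The longer core of the interferon-stimulated response element, GAAANNGAA, which overlaps the first in Myd88, was in 8.56% of all promoters and, among the members, in that of Myd88.

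For Tlr4, the sequence shown surrounds the codon at which C3H/HeJ is known to differ from other strains. Tlr4 (ENSMUSG00000039005) lies on the plus strand at chr4:66827584-66930284, and the codon, in capitals, is that of residue 712 of 835, in exon 3 of 3. The 63 bases are the B6 reference at chr4:66841075-66841137 (GRCm38), in the direction of the gene.
Tlr4: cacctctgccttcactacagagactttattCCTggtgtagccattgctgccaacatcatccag
A level of RNA per gene does not read this codon, so the table shows only how much Tlr4 RNA there was, and not which allele it carried.

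Levels are given in FPKM (fragments per kilobase, corrected for the depth of each library), a scale per length that allows a rough comparison between genes. It uses the annotated length of each gene, and which of its transcripts were present was not tested. Tlr3 stood at 1.77, 1.69 and 1.59 FPKM in the 3 B6 mice, from 165 to 178 reads per library. In C3H it stood at 1.21, 1.61 and 1.29 FPKM, from 117 to 162 reads. In WSB it stood at 0.670, 0.288 and 0.463 FPKM, from 26 to 58 reads. Every WSB mouse was thus below every mouse of the other strains, while the highest C3H mouse overlapped the B6 range. Whether reads of WSB and C3H mice aligned as well as those of B6, the strain of the reference genome, was not tested for any gene. The group means were 1.68 ± 0.0922 (SD, n = 3), 1.37 ± 0.211 (SD, n = 3) and 0.474 ± 0.191 FPKM (SD, n = 3) in B6, C3H and WSB.

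**Figure D1:**
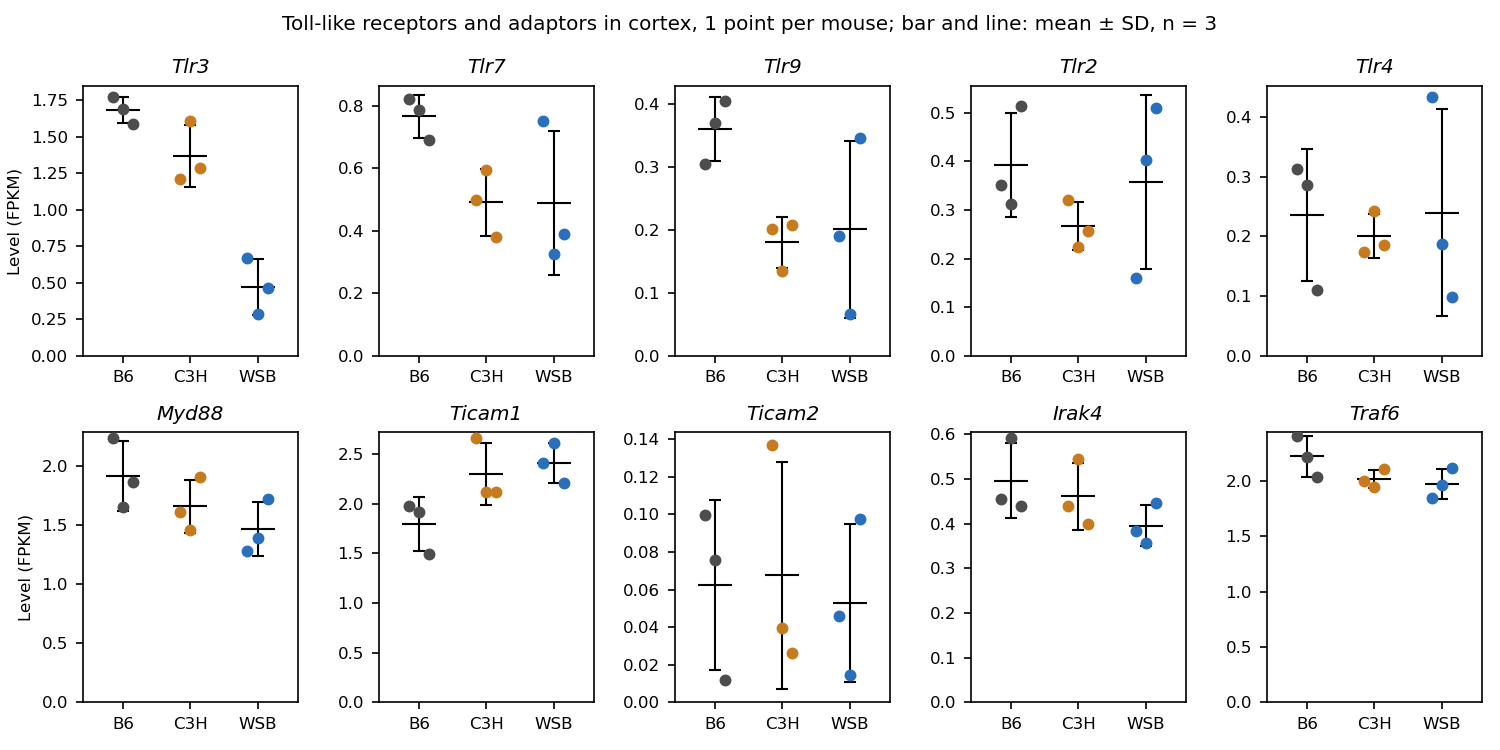
Level of each of the 10 genes in FPKM (vertical axis, from 0, with its own scale in each panel) in the 3 mice of B6, C3H and WSB (points), with the mean and SD of each strain (bar and line). For Tlr3 the WSB mice, at 0.288 to 0.670 FPKM, lie below all B6 and C3H mice, whereas Ticam1 in WSB lies above B6 and overlaps C3H, and the other 8 genes in WSB overlap both strains.

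Differences between strains were tested with limma on log2(FPKM + 0.1), which understates the change of low genes, and p-values were adjusted over all genes tested (Benjamini-Hochberg, threshold 0.05). Tlr3 was lower in WSB than in B6 by a log2 fold change of -1.69 (SE 0.27, 95% interval -2.31 to -1.07, limma adjusted p = 0.012), a 3.55-fold difference of the means. Against C3H the log2 fold change in WSB was -1.40 (SE 0.29, 95% interval -2.07 to -0.73, limma adjusted p = 0.0339), a 2.89-fold difference. Between C3H and B6 it was -0.29 (SE 0.16, 95% interval -0.66 to 0.08, limma adjusted p = 0.294), which did not pass and was 0.008 once the trend with GC content was removed from each library. The mice of a strain are separate animals. The p-values rest on the spread between mice within the strains compared, drawn towards a trend fitted over all genes tested.

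The call between WSB and B6 held in 4 of 6 fits that each left out 1 mouse. Without B6 replicate 1 its limma adjusted p was 0.0512 and without B6 replicate 2 it was 0.0562. The call between WSB and C3H held in 1 of 6 such fits, with limma adjusted p from 0.0324 to 0.11, and it was lost without each C3H mouse (0.0627 without C3H replicate 2) and without WSB replicate 2 or 3. With every mouse kept it held in 8 of 11 other settings, of which rescaling by median ratios only repeated the main fit (limma adjusted p = 0.0339). The call was lost with no filter on low values (limma adjusted p = 0.0674) and with eBayes without a trend (limma adjusted p = 0.0571) among others.

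The cortex holds many cell types, and in bulk tissue fewer cells of a type cannot be told apart from less RNA per cell. The summed level of 7 microglial markers (Cx3cr1, P2ry12, Tmem119, Csf1r, Aif1, C1qa and Itgam, all with reads in every mouse) was 120.0 to 125 FPKM in B6 mice, 126 to 151 FPKM in C3H mice and 104 to 106 FPKM in WSB mice, so that the WSB mice lay below the others here too. Of the 7, Csf1r was lower in WSB than in B6 (log2 fold change -0.38, limma adjusted p = 0.0154) and C1qa was lower in WSB than in C3H (log2 fold change -0.54, limma adjusted p = 0.0197), while Aif1 was higher in C3H than in B6 (log2 fold change 0.79, limma adjusted p = 0.00995). The markers did not all lie lower in WSB than in B6: C1qa, the highest of them, had means of 50.3 and 62.0 FPKM, but Aif1 had 6.12 and 4.80, P2ry12 11.5 and 10.1, and Itgam 1.30 and 1.28 FPKM. As a share of this sum, Tlr3 was 1.3% to 1.42% in B6, 0.85% to 1.28% for C3H and 0.273% to 0.643% for WSB, and the WSB mice again did not overlap the others. Astrocyte markers (Aqp4, Gfap, Aldh1l1 and Slc1a3) summed to 155 to 161 FPKM in WSB mice. The B6 mice, at 152 to 188 FPKM, overlapped this range, whereas the C3H mice, at 170 to 199 FPKM, lay above it. Gfap was lower in WSB than in C3H (log2 fold change -0.7, limma adjusted p = 0.0141). None of the 4 passed between WSB and B6, where Aqp4 and Gfap had lower means in WSB and Aldh1l1 and Slc1a3 higher ones. Neuronal markers, 4 in number, summed to 666 to 720 FPKM among B6, 683 to 776 among C3H and 646 to 721 among WSB. These neuronal ranges overlapped between all strains. Oligodendrocyte markers, 3 in number, summed to 298 to 421 FPKM in WSB mice. They were higher in B6 mice (538 to 695 FPKM) and in C3H mice (513 to 682 FPKM). Of these, Mog passed as lower in WSB than in C3H (log2 fold change -0.92, limma adjusted p = 0.0407). The part of any cell type in the Tlr3 result was not tested. Endothelial markers summed to 16.5 to 26.1 FPKM and choroid plexus markers to 62.8 to 754 FPKM over all mice, the latter varying widely within B6 and C3H. Blood markers summed to 178 to 214 FPKM in B6, 248 to 291 FPKM in WSB and 552 to 858 FPKM in C3H, with S100a8 at 0 in some C3H and WSB mice. The antisense gene Gm45542, which overlaps Tlr3 by 381 exonic bases on the opposite strand, had 0 reads in all 9 libraries. How reads within this overlap were assigned is not stated.

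Tlr7 and Tlr9, the endosomal receptors for single-stranded RNA and CpG DNA, were at lower levels than Tlr3 in B6 and C3H. Tlr7 (ENSMUSG00000044583, chrX:167304929-167330558) stood at 0.821, 0.788 and 0.690 FPKM in B6, 0.500, 0.594 and 0.379 FPKM in C3H mice, and 0.751, 0.325 and 0.389 FPKM in WSB. Its C3H mice all lay below the B6 mice, and WSB replicate 1 lay within the B6 range while the other WSB mice did not. The log2 fold change against B6 was -0.57 in C3H (SE 0.23, limma adjusted p = 0.187) and -0.62 in WSB (SE 0.30, limma adjusted p = 0.303), and neither passed. With the GC trend removed these were -0.296 in C3H and -0.59 in WSB.

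Tlr9 (ENSMUSG00000045322, chr9:106222598-106226883) stood at 0.305, 0.370 and 0.405 FPKM in B6 and at 0.201, 0.134 and 0.207 FPKM in C3H, again without overlap. In WSB it ranged from 0.0664 to 0.346 FPKM, or 4 to 22 reads, and overlapped both strains. The log2 fold change was -0.72 in C3H against B6 (SE 0.30, limma adjusted p = 0.199) and -0.72 in WSB against B6 (SE 0.42, limma adjusted p = 0.398). With the GC trend removed these were -0.867 in C3H and -0.753 in WSB. The 3 endosomal receptors summed to 2.68 to 2.9 FPKM in B6, 1.87 to 2.33 FPKM in C3H and 0.68 to 1.61 FPKM in WSB, a description in which Tlr3 makes up most of the B6 and C3H levels.

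Tlr2 (ENSMUSG00000027995, chr3:83836272-83841767), the surface receptor for lipoproteins, stood at 0.352, 0.312 and 0.514 FPKM in B6, 0.321, 0.223 and 0.256 FPKM in C3H, and 0.160, 0.402 and 0.509 FPKM in WSB. The ranges overlapped, and its log2 fold changes were -0.18 in WSB against B6 (95% interval -1.08 to 0.73) and -0.41 in C3H against B6 (95% interval -1.10 to 0.27).

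Tlr4, the receptor for lipopolysaccharide, stood at 0.312, 0.285 and 0.110 FPKM in B6, from 13 to 32 reads per library. In C3H it stood at 0.174, 0.242 and 0.185 FPKM, from 18 to 26 reads, and in WSB at 0.433, 0.187 and 0.0985 FPKM, from 10 to 40 reads. The C3H mice thus lay inside the range of the B6 mice, and the WSB mice spread beyond it on both sides. The log2 fold change was -0.11 in C3H against B6 (SE 0.38, limma adjusted p = 0.891), and its 95% interval, -1.0 to 0.79, spans sizeable differences in either direction. With the GC trend removed it was 0.211. Between WSB and B6 it was -0.04 (95% interval -1.18 to 1.09). With 3 mice per strain and this spread between mice, no difference in Tlr4 RNA was detected.

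**Figure D2:**
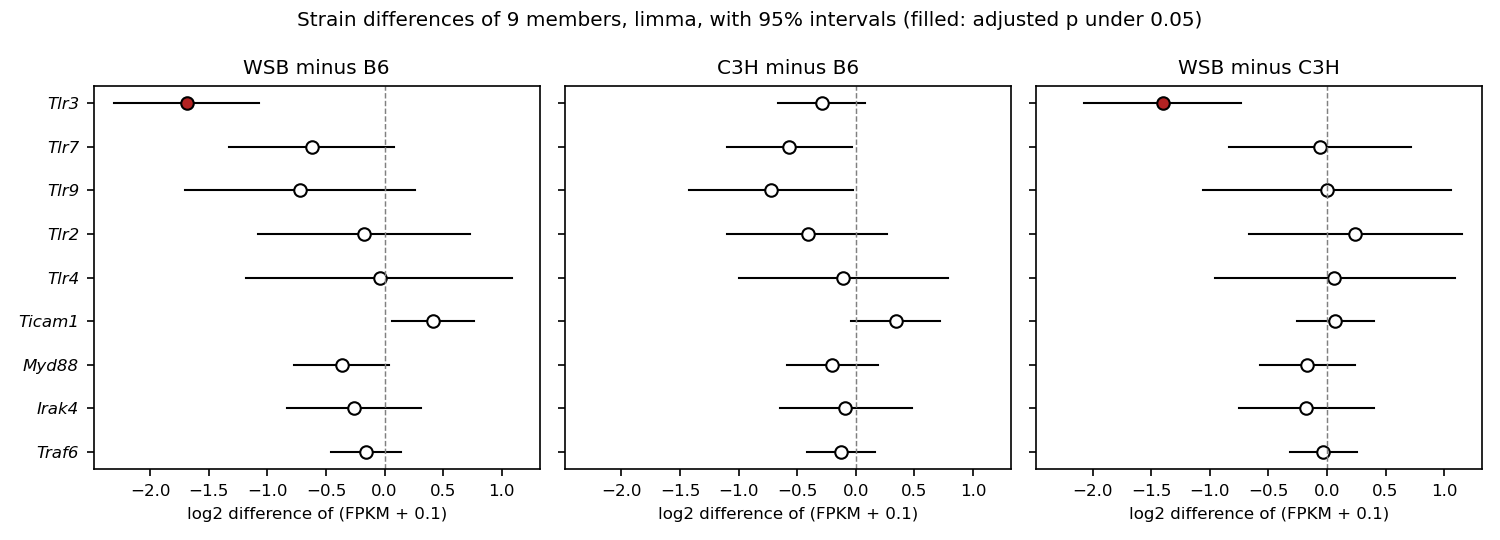
Difference between strains on the scale of log2(FPKM + 0.1) (horizontal axis) for the 9 members tested, with 95% intervals from limma, in WSB minus B6, C3H minus B6 and WSB minus C3H. Filled points passed an adjusted p of 0.05, and these are Tlr3 in both comparisons with WSB, at -1.69 and -1.40.

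Among all 12 annotated receptor genes of the family with values in the table, Tlr3 had the highest mean in B6 and in C3H and was in place 3 in WSB. Tlr6, which pairs with Tlr2, was in place 9 in B6, in place 5 in C3H and in place 1 in WSB. It stood at 0.240, 0.133 and 0.0630 FPKM in B6, 0.288, 0.180 and 0.263 FPKM in C3H and 0.403, 0.418 and 0.661 FPKM in WSB, from 5 to 45 reads. The WSB mice lay above all others, but the log2 fold change of 1.31 against B6 (SE 0.38, limma adjusted p = 0.102) did not pass, nor did that of 0.78 against C3H (SE 0.30, limma adjusted p = 0.182). In WSB the means of Tlr6, Tlr7 and Tlr3, at 0.494, 0.489 and 0.474 FPKM, differed by less than their spread, so their order there cannot be set. In B6, by contrast, the lowest Tlr3 value, 1.59 FPKM, lay above the highest Tlr7 value, 0.821 FPKM, and in C3H the lowest Tlr3 value of 1.21 FPKM lay above the highest value of any other receptor, 0.599 FPKM for Tlr13.

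Tlr13, which recognises bacterial ribosomal RNA, had means of 0.441 FPKM in B6, 0.555 FPKM in C3H and 0.322 FPKM in WSB. Tlr12 had 0.217, 0.153 and 0.198 FPKM, and Tlr1, the other partner of Tlr2, 0.170, 0.0518 and 0.0342 FPKM. No receptor outside the 10 genes passed the test in any comparison. Tlr5, Tlr8 and Tlr11 had means under 0.1 FPKM and were not tested, and Tlr1 was under this limit in WSB and C3H together.

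**Figure D3:**
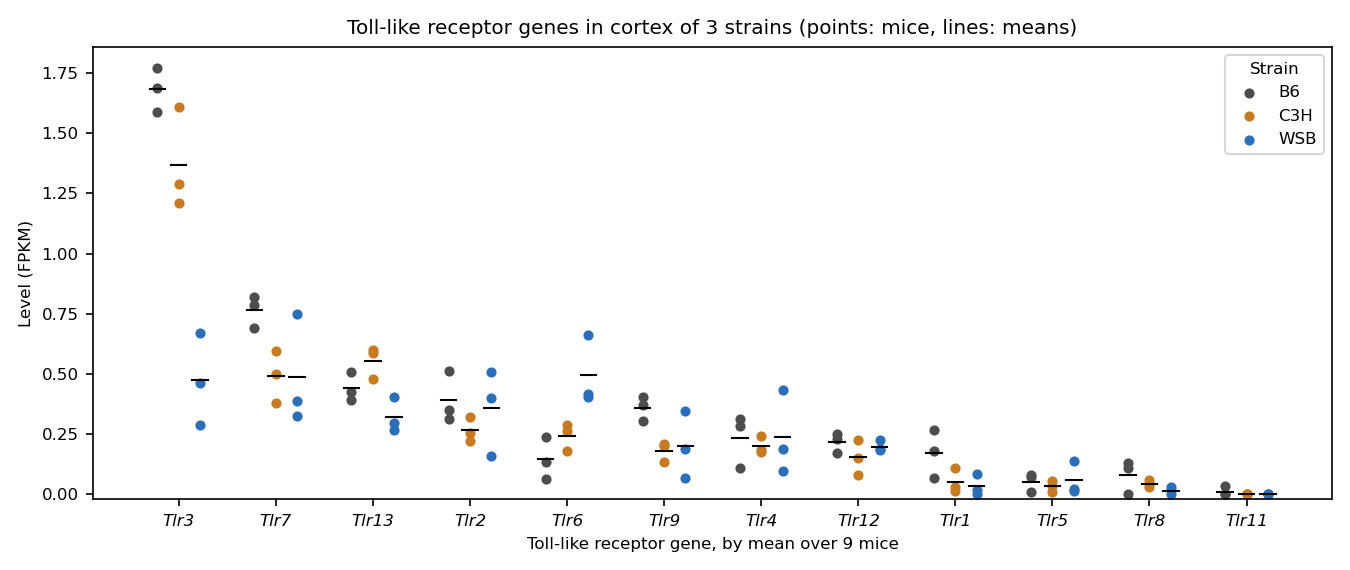
Level in FPKM (vertical axis) of the 12 Toll-like receptor genes, ordered by their mean over the 9 mice, with points for mice and lines for the strain means. Tlr3 leads in B6 and C3H, with means of 1.68 and 1.37 FPKM, and in WSB Tlr6, Tlr7 and Tlr3 lie close together at 0.474 to 0.494 FPKM.

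The adaptors did not differ by the test. Myd88 (ENSMUSG00000032508, chr9:119335934-119341411) had means of 1.91 ± 0.294 (SD, n = 3), 1.66 ± 0.223 (SD, n = 3) and 1.47 ± 0.228 FPKM (SD, n = 3) in B6, C3H and WSB, and its log2 fold change in WSB against B6 was -0.36 (SE 0.17, limma adjusted p = 0.294). It shares 290 exonic bases with Acaa1a on the opposite strand, an enzyme gene of peroxisomal fatty acid oxidation that was lower in WSB than in B6 (9.50 against 18.3 FPKM, limma adjusted p = 0.000524) and in C3H than in B6 (10.1 FPKM, limma adjusted p = 0.00239). Whether reads were counted by strand is not stated, so how reads of the overlap were assigned is not known.

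Ticam1 (ENSMUSG00000047123, chr17:56269319-56276786), the adaptor of Tlr3, was the member with higher means in both other strains than in B6. It stood at 1.98, 1.92 and 1.49 FPKM in B6, 2.66, 2.12 and 2.12 FPKM in C3H, and 2.41, 2.61 and 2.21 FPKM in WSB. All B6 mice lay below all C3H and WSB mice. The log2 fold change against B6 was 0.41 in WSB (SE 0.15, limma adjusted p = 0.179) and 0.34 in C3H (SE 0.16, limma adjusted p = 0.245), and neither passed. With the GC trend removed these were 0.377 in WSB and 0.191 in C3H. Ticam2 (ENSMUSG00000056130, chr18:46559155-46574533) had 1 to 10 reads per library, with strain means from 0.0527 to 0.0675 FPKM, and was not tested. It shares 838 exonic bases with Tmed7 on the same strand, which stood at 10.4 to 12.6 FPKM by strain mean, so the few reads given to Ticam2 are uncertain.

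Irak4 (ENSMUSG00000059883, chr15:94543643-94581815) and Traf6 (ENSMUSG00000027164, chr2:101678429-101701669), which act in turn below Myd88, did not pass the test in any comparison. Irak4 had means of 0.496, 0.461 and 0.396 FPKM in B6, C3H and WSB, and Traf6 had 2.22, 2.02 and 1.98 FPKM. Every strain's range overlapped the others for both genes. The 95% intervals of the log2 fold change in WSB against B6 were -0.83 to 0.31 for Irak4 and -0.46 to 0.14 for Traf6. Irak4 shares 395 exonic bases with Twf1 on the opposite strand, whose strain means were 14.0 to 14.5 FPKM.

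Over the members, 9 of 10 passed the filter on low values in each comparison. Between WSB and B6, 1 of 9 was called (Tlr3, lower), against 5.9% of all 20746 genes tested, and 2 of 9 did not overlap between the strains, against 26.0% of all genes. Between C3H and B6, 0 of 9 were called by limma, against 4.64% of 20602 genes, and 2 of 9 had an unadjusted p under 0.05, against 4972 of the 20602 genes. In this comparison 3 of 9 did not overlap, against 28.9%. Between WSB and C3H, 1 of 9 was called (Tlr3, lower), against 5.74% of 20607 genes, and 1 of 9 did not overlap, against 28.6%. A single call among 9 genes does not set the members apart from the background. The median log2 fold change of the members was -0.26, -0.20 and -0.03 in the 3 comparisons, beside medians of 0.002, -0.004 and 0.009 over all genes.

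A list of 53 further genes of the pathway held 3 that passed the test in at least 1 comparison. Between WSB and B6, 45 were tested, 1 was higher (Tab1) and 2 were lower (Unc93b1 and Irak2). Between WSB and C3H, 44 were tested and the same genes Unc93b1 and Irak2 were lower, while between C3H and B6, 46 were tested and Tab1 was higher. These shares of 6.67%, 4.55% and 2.17% lie near or under those of all genes.

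Unc93b1 encodes the protein that carries the endosomal receptors, Tlr3, Tlr7 and Tlr9 among them, from the endoplasmic reticulum to endosomes. It stood at 5.86, 5.54 and 6.05 FPKM in B6, 5.71, 5.38 and 6.26 FPKM in C3H, and 2.98, 2.93 and 2.85 FPKM in WSB. The WSB values were tightly grouped, at 141 to 148 reads, and far from the other strains. The log2 fold change in WSB was -0.97 against B6 (SE 0.09, limma adjusted p = 0.000978) and -0.96 against C3H (SE 0.10, limma adjusted p = 0.0022), and both calls held in 6 of 6 fits that left out 1 mouse. Between C3H and B6 it was -0.01 (limma adjusted p = 0.963). As a share of the microglial marker sum, Unc93b1 made up 4.64% to 4.97% among B6, 4.05% to 4.28% among C3H and 2.75% to 2.87% among WSB mice.

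Irak2, a kinase of the Myd88 complex that sustains signalling to Traf6, stood at 4.25, 4.11 and 4.19 FPKM in B6, 4.40, 3.37 and 3.90 FPKM in C3H, and 2.02, 2.50 and 2.15 FPKM in WSB. The WSB mice did not overlap the others. Its log2 fold change in WSB was -0.89 against B6 (SE 0.11, limma adjusted p = 0.00494), a call that held in 6 of 6 fits without 1 mouse, and -0.78 against C3H (SE 0.14, limma adjusted p = 0.0233), which held in 2 of 6.

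Tab1, an activator of the kinase Map3k7 (TAK1) below Traf6, stood at 7.65, 8.25 and 8.91 FPKM in B6, 13.6, 10.7 and 12.1 FPKM in C3H, and 10.6, 11.6 and 12.5 FPKM in WSB. All B6 mice were below the mice of both other strains. The log2 fold change against B6 was 0.48 in WSB (SE 0.09, limma adjusted p = 0.0293) and 0.54 in C3H (SE 0.11, limma adjusted p = 0.0387). Each of these calls held in 1 of 6 fits without 1 mouse, with limma adjusted p up to 0.105 and 0.13 respectively. With every mouse kept, both were lost with eBayes without a trend (limma adjusted p = 0.0844 in WSB and 0.106 in C3H). The call in C3H was also lost with no filter on low values (limma adjusted p = 0.0547) and with the replicate block (limma adjusted p = 0.117).

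**Figure D4:**
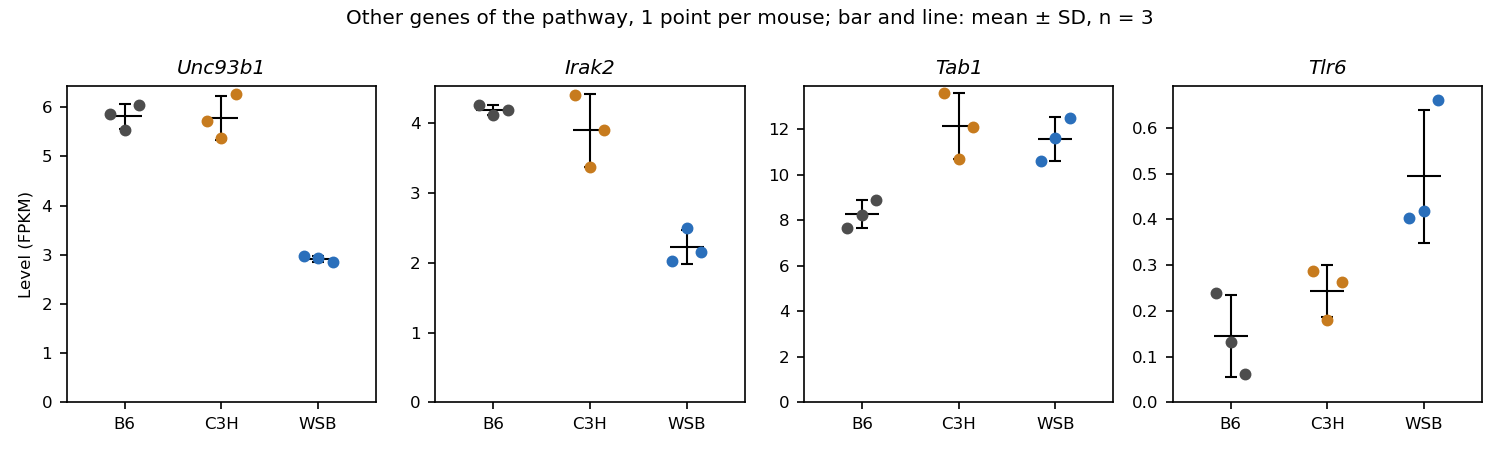
Level in FPKM (vertical axis, from 0) of Unc93b1, Irak2, Tab1 and Tlr6 in the 3 mice of each strain (points), with mean and SD (bar and line). Unc93b1 and Irak2 are lower in WSB, Tab1 is lower in B6, and Tlr6 is highest in WSB without passing the test.

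Apart from Unc93b1, Irak2 and Tab1, no gene of the list was called in any comparison. Among chaperones and co-receptors, Hsp90b1 and Cnpy3, which help to fold several of the receptors, were at 44.5 to 62.9 and 23.0 to 34.9 FPKM over the 9 mice. Of the other adaptors with a TIR domain, Sarm1 was at 5.70 to 8.13 FPKM and Tirap, which brings Myd88 to Tlr2 and Tlr4, at 0.267 to 0.666 FPKM. The kinases Tbk1 and Irak1 ranged from 10.1 to 13.4 and from 9.40 to 11.5 FPKM.

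The transcription factors Rela, Irf3 and Nfkb1, on which the pathway ends, were at 7.84 to 10.7, 4.86 to 7.17 and 1.14 to 1.79 FPKM. The inhibitors Tollip, Cyld and Nfkbia were at 34.6 to 41.1, 10.7 to 17.7 and 9.23 to 15.5 FPKM, and none of the 6 inhibitors passed the test. The other sensors of double-stranded RNA were also tested without a call: Eif2ak2 (PKR) had means of 1.14, 0.845 and 1.01 FPKM, Ddx58 (RIG-I) 0.685, 0.582 and 0.419 FPKM, and Ifih1 (MDA5) 0.456, 0.323 and 0.429 FPKM in B6, C3H and WSB.

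The target cytokines were near the limit of detection in all strains. Ifnb1 had 0 reads in all 9 libraries, and Tnf, Il6 and Ccl5 had at most 3 reads in any. Il1b ranged from 1 to 13 reads and Ccl2 from 0 to 6 reads. Cxcl10 was covered by 5 to 8 reads per B6 mouse, 1 to 6 per C3H mouse and at most 1 per WSB mouse, and was under the filter in both comparisons with WSB.

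The levels of 5 genes followed that of Tlr3 most closely over the 9 mice by Pearson correlation of log2(FPKM + 0.1), out of 13006 genes that averaged 1 FPKM or more. They were 2500004C02Rik (r = 0.987), Chrdl1 (r = 0.983), Zfp874b (r = 0.975), Mest (r = 0.974) and Parp12 (r = 0.968), and 110 genes had r over 0.9. All 5 had their lowest mean in WSB, for example 0.836 FPKM for Chrdl1 against 2.34 FPKM in B6. The 9 mice form 3 strain groups, so these values describe mainly the strain means. For Tlr4 the closest were Dpy19l3 (r = 0.931), Pid1 (r = 0.919), Gm8407 (r = 0.914), Ogn (r = 0.859) and Gtf2a2 (r = 0.85), of which Ogn had strain means of 2.81, 1.91 and 2.50 FPKM in B6, C3H and WSB and the others had nearly level means.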

How the data were processed

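RNA of brain cortex from 9 male mice was measured, 3 per strain. The authors trimmed reads with Cutadapt, and the submitters' processing notes name STAR, HTSeq and DESeq2. Versions and the genome build are not given in the sources used here. The deposited values are FPKM per gene and mouse. Of 54532 identifiers, 54495 were found in GENCODE M21 (GRCm38) and 53585 had the same coordinates. FPKM times gene length gave whole multiples of 1 step per library within 0.01, which returned the reads per gene. These served for depth, for a floor of 3 reads and for voom weights. The counting intervals of single mice and the floor of 3 reads cover counting error only. The limma intervals of log2 fold changes rest instead on the spread between mice. Between mice of a strain the chi-square per gene was 7.29 to 22.04, so no libraries were alike within sampling noise.

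Strains were compared pairwise with limma 3.58.1 in R 4.3.3 (lmFit, then eBayes with its trend option; two-sided). Values were log2(FPKM + 0.1), genes averaging under 0.1 FPKM in the 6 mice were left out, and p-values were adjusted over all genes left (Benjamini-Hochberg, threshold 0.05). The fit was tested on simulated data with the same dispersion for all genes. Its criteria for calls found and false calls covered only genes averaging at least 1 FPKM, so it does not vouch for lower genes such as Tlr4 and Tlr7. Nor does it vouch for Tlr3 between WSB and C3H, where Tlr3 averaged under 1 FPKM. The dispersion was not taken from these data, in which the SD of Tlr3 in WSB was 40.3% of its mean. Promoters came from RefSeq (GRCm38.p6). Named genes were the members, every receptor, pathway genes that passed the test, the 3 highest genes of each role, and the 5 genes most like Tlr3 and Tlr4. Members and lists were chosen with earlier results of these data known. The alternatives changed the pseudocount (1 or 0.01), the filter (none, 1 FPKM, or coding genes alone) and the scaling (median ratios or total reads). Others fitted the strains jointly, dropped the trend, used voom weights, blocked on replicate number or left out each mouse. Removing the GC trend of each library was chosen after seeing the data. A marker gene of the microglial list is not reported here, and the sums leave it out.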

Additional observations from a re-analysis of the deposited data

Results flagged for a closer look

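For 3 genes the difference of WSB from B6 and the difference of C3H from B6 were themselves different, tested as WSB against C3H. The log2 difference was -1.40 for Tlr3 (limma adjusted p = 0.0339), -0.96 for Unc93b1 (limma adjusted p = 0.0022) and -0.78 for Irak2 (limma adjusted p = 0.0233). In each of them every WSB mouse lay below every C3H mouse. These are the values of the WSB against C3H fit given above, so they are no separate test. In fits without 1 mouse the call held in 1 of 6 for Tlr3, 6 of 6 for Unc93b1 and 2 of 6 for Irak2. The test for a single outlying value needs at least 4 samples and was not run on groups of 3 mice.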

How the results depend on the processing

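Tlr3 was called between WSB and B6 in all 12 alternatives that kept every mouse, and Unc93b1 and Irak2 likewise. Of these, rescaling by median ratios repeated the main fit, with 1224, 956 and 1182 genes called in the 3 comparisons, so it is no separate check. Leaving out 1 mouse gave 0 to 1 members called between WSB and B6 and between WSB and C3H. In WSB against C3H no member (0) was called with no filter, with a filter of 1 FPKM, where Tlr3 was not tested, with eBayes without a trend or with the replicate block (Tlr3 limma adjusted p = 0.101). Pathway genes called between C3H and B6 numbered 0 with no filter, eBayes without a trend and the replicate block, and 0 to 2 without 1 mouse, with 2 without C3H replicate 2. Between WSB and C3H they numbered 1 with the replicate block and 1 to 5 without 1 mouse, with 5 without C3H replicate 2. Over all genes, 1224, 956 and 1182 were called between WSB and B6, C3H and B6, and WSB and C3H. The replicate block gave 754, 480 and 531. Leaving out 1 mouse gave 651 to 825, 498 to 2301 and 475 to 2002, the highest of the last 2 without C3H replicate 2. The correlation of same-numbered mice was -0.157 to 0.037, so they share only a number. Signs turned for low or near-zero differences, and the cause was not tested. With the GC trend removed, C3H against B6 gave 0.008 for Tlr3 and 0.211 for Tlr4, and WSB against C3H gave -0.224 for Tlr4, 0.112 for Tlr9 and 0.063 for Tab1. Tlr9 in WSB against C3H was 0.019 with a pseudocount of 1, 0.024 with total reads and 0.007 with voom weights, and Traf6 was 0.007 with total reads. Without 1 mouse, WSB against B6 ranged from -0.427 to 0.188 for Tlr2 and from -0.43 to 0.282 for Tlr4. C3H against B6 ranged from -0.413 to 0.073 for Tlr4, -0.189 to 0.027 for Irak4 and -0.067 to 0.04 for Unc93b1. WSB against C3H ranged from -0.013 to 0.601 for Tlr2, -0.325 to 0.388 for Tlr4, -0.357 to 0.143 for Tlr7, -0.342 to 0.37 for Tlr9, -0.08 to 0.016 for Traf6 and -0.149 to 0.022 for Tab1. Tlr2, Tlr4, Tlr9 and Ticam2 had at most 40 reads in any library. For Tlr4 the counting intervals of replicates 1 and 3 did not overlap in B6 (0.212 to 0.442 against 0.0585 to 0.188 FPKM) or in WSB (0.309 to 0.59 against 0.0472 to 0.181 FPKM), so its spread is not counting error alone.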
